A study of Mus musculus with 16 samples.

Results

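The growth factor receptor loci are 4 windows of the mouse genome named for Pdgfra, Tgfbr2, Egfr and Fgfr1. They are set by position, as the mm9 intervals chr5:75480000-75650000 (Pdgfra), chr9:115950000-116180000 (Tgfbr2), chr11:16620000-16850000 (Egfr) and chr8:26580000-26740000 (Fgfr1). The choice was made with earlier results of these data known. The windows hold 36 of the 79796 H3K4me1 summits listed for unstimulated dendritic cells and 71 of the 81860 listed for unstimulated 3T3 cells, an established mouse fibroblast line. A summit is the 1 bp position at which a called ChIP-seq peak is highest. The series has 16 samples, for 3 histone marks and input DNA in resting and stimulated cells of each type, and the 14 samples other than these were not analysed here. The dendritic cells were grown from bone marrow progenitors that had been infected with a retrovirus carrying a hairpin against JmjD2d, a histone demethylase, selected with histidinol and differentiated in GM-CSF. The labels name no such hairpin for the 3T3 cells, which were grown under standard conditions, so cell type and hairpin cannot be told apart. For the 3T3 sample, the cell type field reads dendritic cells, against 3T3 in the title, the description and the header of the list, and it was taken as 3T3.

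H3K4me1 is a histone mark found at enhancers, active or poised, and on the flanks of promoters. Growth factor receptors pass signals from secreted ligands into the cell. Pdgfra, Egfr and Fgfr1 are receptor tyrosine kinases for platelet-derived growth factors, for ligands of the epidermal growth factor family and for fibroblast growth factors. Tgfbr2 is the serine/threonine kinase that binds TGF-beta first and then recruits the type I receptor. Fibroblasts respond to all of these ligands, Pdgfra is widely used as a fibroblast marker, and TGF-beta signalling also acts in dendritic cells.

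No gene positions in mm9 were at hand, so a window means the named gene with flanking sequence, and no summit is placed at a promoter, exon or intron. For the same reason neither cell type was checked against marker genes. In the RefSeq gene table, which is of GRCm38 and was used only for lengths, names and order, the genes span 46885 bp (Pdgfra), 87669 bp (Tgfbr2), 161705 bp (Egfr) and 56960 bp (Fgfr1). The windows are longer, at 170, 230, 230 and 160 kb.

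RefSeq promoter sequences of GRCm38.p6 were found for Pdgfra, Tgfbr2 and Egfr, and not for Fgfr1. They are shown to identify the regulatory starts of these receptor genes, as the 250 bases before the gene start, read in the direction of the gene, with each CpG dinucleotide in capitals. These coordinates are of GRCm38.p6 and cannot be set against the mm9 summits.
Pdgfra (chr5:75152001-75152250, plus strand): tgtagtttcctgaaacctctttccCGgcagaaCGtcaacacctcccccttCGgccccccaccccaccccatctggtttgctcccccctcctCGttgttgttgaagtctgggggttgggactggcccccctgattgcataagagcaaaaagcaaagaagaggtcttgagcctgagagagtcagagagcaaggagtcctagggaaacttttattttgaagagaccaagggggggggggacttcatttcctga
Tgfbr2 (chr9:116175364-116175613, minus strand): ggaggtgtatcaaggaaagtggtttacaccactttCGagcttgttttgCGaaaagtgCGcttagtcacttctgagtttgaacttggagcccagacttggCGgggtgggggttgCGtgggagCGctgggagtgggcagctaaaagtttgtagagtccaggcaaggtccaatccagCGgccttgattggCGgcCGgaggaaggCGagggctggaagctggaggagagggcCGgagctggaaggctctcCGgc
Egfr (chr11:16751953-16752202, plus strand): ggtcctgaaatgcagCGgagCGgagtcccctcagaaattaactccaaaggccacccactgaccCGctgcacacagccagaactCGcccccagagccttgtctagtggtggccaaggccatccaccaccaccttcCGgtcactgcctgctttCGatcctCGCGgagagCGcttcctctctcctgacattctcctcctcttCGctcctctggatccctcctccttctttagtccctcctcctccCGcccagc
The Pdgfra stretch holds 4 CpG dinucleotides, and 62.2% of the 32851 RefSeq promoters hold as many or more. Those of Tgfbr2 and Egfr hold 12 and 11, numbers reached by 33.5% and 35.6% of promoters, so these are CpG-richer than the median promoter, which holds 6.

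The 4 loci fell into 3 patterns. Egfr and Fgfr1 carried several times more summits in 3T3 than in dendritic cells, Tgfbr2 carried many in both cell types, and Pdgfra carried fewer 3T3 summits than the other loci and about the genome-wide density of each list. Together the windows held 71 3T3 summits (exact Poisson 95% interval 55.5 to 89.6) and 36 dendritic cell summits (25.2 to 49.8). The 3T3 list thus supplied 66.4% of the 107 summits (exact Clopper-Pearson 95% interval 56.6 to 75.2), against 50.6% of all summits in both lists. Each cell type is 1 library with no replicate, so these intervals cover counting error only, take summits as independent, and no p-value was computed. The depth is unknown, since no source used here gives read totals, and an absent summit may be one that fell short of the calling threshold.

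**Figure D1:**
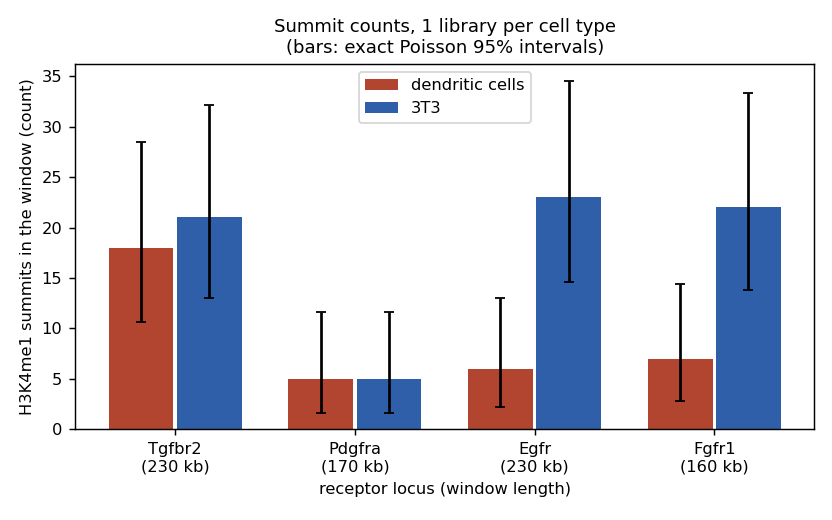
Number of H3K4me1 summits (vertical axis, count) in each receptor window (horizontal axis, with window length), with dendritic cells in red and 3T3 in blue, and exact Poisson 95% intervals as error bars. The counts are 18 and 21 at Tgfbr2, 5 and 5 at Pdgfra, 6 and 23 at Egfr, and 7 and 22 at Fgfr1, and the intervals of the cell types do not overlap only at Egfr.

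At Egfr, 23 summits were called in 3T3 (14.6 to 34.5) and 6 in dendritic cells (2.20 to 13.1). That is 10.0 per 100 kb in 3T3 and 2.61 in dendritic cells. The 3T3 share was 79.3% (60.3 to 92.0), above the 52.2% of chromosome 11. In the rest of the surrounding 5 Mb it was 61.7% (82 of the summits from 3T3 and 51 from dendritic cells), a value inside the interval of the locus. An excess of 17 or more 3T3 summits was found in 3.42% of all 230 kb tiles of the genome that held any summit. These tiles held a median of 7 dendritic cell and 8 3T3 summits. The percentage thus depends on summit density as well as on the 3T3 share.

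Of the 23 3T3 summits at Egfr, 17 formed an unbroken run. Between the lower edge of the window and the first dendritic cell summit, at 16793175, lay 173.2 kb with 17 3T3 summits and no dendritic cell summit. This stretch was picked as the longest without a dendritic cell summit after the values were seen, so it is a description. Its count of 0 was fixed by that choice and carries no interval. From 16620000 to the window's midpoint at 16735000, 12 3T3 and 0 dendritic cell summits were listed. This part lies inside the picked stretch, so its count of 0 carries no interval either. The scores of the 17 3T3 summits in the 173.2 kb stretch ran from 15 to 101 with a median of 45. The median of the whole 3T3 list was 33. A score was taken as the height of the peak in its own library. The highest, each with a score of 101, were at 16670051 and 16745238, and the next, at 16709776, scored 95. These belong to the top 10% of the 3T3 list, which starts at a score of 75. Their nearest dendritic cell summits lay 99691, 47937 and 83399 bp away.

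All 6 dendritic cell summits at Egfr lay in the upper part of the window, between 16793175 and 16849225. Their scores were 23 at the lowest, 33 at the median and 44 at the highest, so none came near the top 10% of the dendritic cell list, which starts at 79. In that part 6 3T3 summits were listed as well, and 3 of them paired with dendritic cell summits within 1000 bp. The dendritic cell marking went on past the upper edge, where the next 100 kb held 9 dendritic cell summits and 2 3T3 summits. The protein-coding genes next to Egfr on that side in the GRCm38 table are Fbxo48 and Plek, the second of which encodes pleckstrin, a protein of platelets and leukocytes. Which of these genes the summits overlie was not determined.

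At Fgfr1, 22 summits were called in 3T3 (13.8 to 33.3) and 7 in dendritic cells (2.81 to 14.4). The density of 13.7 per 100 kb in 3T3 was the highest of the 4 loci, against 4.37 in dendritic cells. The 3T3 share was 75.9% (56.5 to 89.7). Chromosome 8 as a whole holds more summits of 3T3 (60.2%), a value inside that interval, while the rest of the surrounding 5 Mb stood at 54.0%. An excess of 15 or more was found in 1.97% of all 160 kb tiles and in 4.77% of those on chromosome 8. All 160 kb tiles held a median of 5 dendritic cell and 6 3T3 summits, so density enters these percentages too. The part of the chromosome-wide difference in the Fgfr1 excess was not tested.

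The Fgfr1 window was also divided in its length. Its lower 107.1 kb held 11 3T3 summits and no dendritic cell summit, a stretch picked in the same way. A dendritic cell summit with a score of 40 lay 0.9 kb outside its lower end, beyond the window edge. The 3T3 scores there ran from 25 to 137 with a median of 39. The highest summits, at 26648685 with a score of 137 and at 26654314 with 119, scored above 98.8% and 97.8% of the 3T3 list. Both lay over 30 kb from any dendritic cell summit (38415 and 32786 bp). In the upper part, from 26687100 on, summits of both lists were interspersed, with runs of up to 4 from 3T3. Each of the 7 dendritic cell summits had a 3T3 summit within 3780 bp, at a median of 1818 bp, but only 2 had one within 1000 bp. The dendritic cell scores were 23 at the lowest, 33 at the median and 64 at the highest. The next genes on this side in the GRCm38 table are Letm2 and Nsd3, a mitochondrial protein gene and a histone methyltransferase gene.

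**Figure D2:**
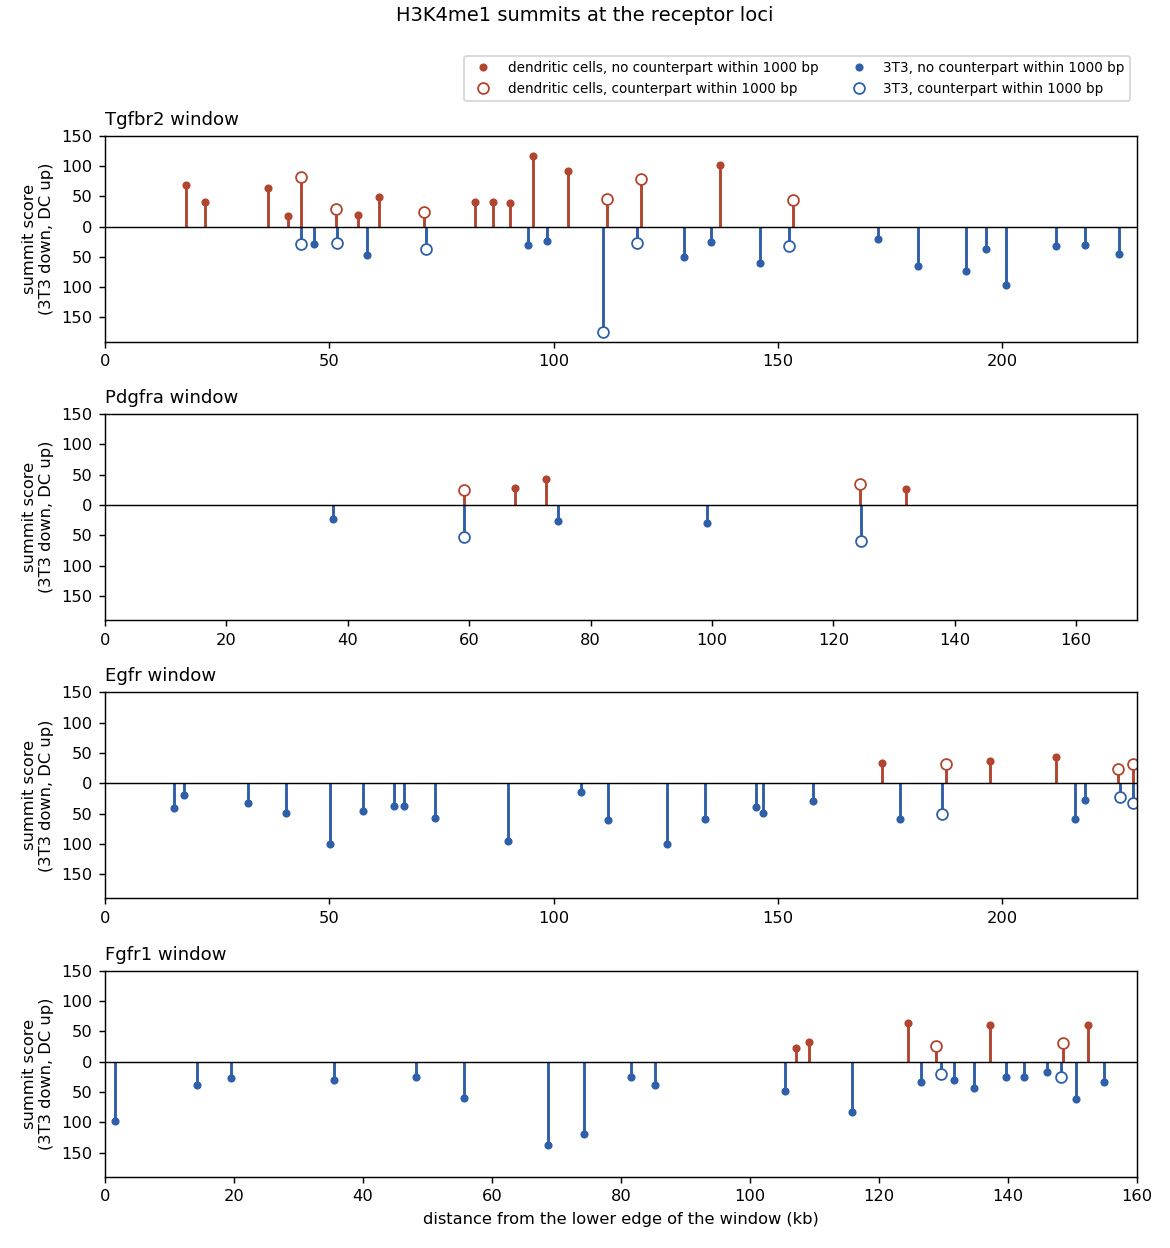
Summits along each receptor window: the horizontal axis is the distance from the lower edge of the window in kb, and the length of each line is the summit score, upward for dendritic cells (red) and downward for 3T3 (blue); open circles have a counterpart in the other list within 1000 bp. The scores are not scaled between the lists. The left parts of the Egfr and Fgfr1 windows show 17 and 11 blue lines and no red one. The Tgfbr2 window shows red alone at its left end, up to a shared site, and blue alone at its right.

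Tgfbr2 was densely marked in both cell types. The window held 21 3T3 summits (13.0 to 32.1) and 18 dendritic cell summits (10.7 to 28.4), or 9.13 and 7.83 per 100 kb. The 3T3 share of 53.8% (37.2 to 69.9) took in the 50.6% of the whole lists, and 32.3% of 230 kb tiles had an excess of 3 or more. Counts this high in both lists at once were found in 7.17% of tiles. Taken alone, as many dendritic cell summits were found in 21.8% of tiles and as many 3T3 summits in 12.3%. The joint percentage was 7.05% for the counts at Egfr and lower for those at Fgfr1, in 160 kb tiles. It therefore does not set Tgfbr2 apart from these loci. The locus stood at the edge of an empty stretch: the 100 kb steps from 400 kb below the window up to it held 1 3T3 summit and no dendritic cell summit, and the nearest dendritic cell summit below lay 431.8 kb from the edge. Gadl1 is the next protein-coding gene on that side in the GRCm38 table.

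Both lists covered Tgfbr2, but their high summits were at different places. Dendritic cell scores ran from 18 to 116 with a median of 44, above the list median of 36. The 5 dendritic cell summits in the top 10% of their list were at 116045440 (score 116), 116087109 (101), 116053283 (91), 115993597 (81) and 116069463 (79). The nearest 3T3 summits scored 31, 26, 24, 29 and 27, all below the 3T3 list median of 33. The highest 3T3 summit, at 116061057, scored 174, above 99.7% of the 3T3 list. The dendritic cell summit 871 bp away scored 45, above 63.8% of its own list and above that list's median of 36.

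The ends of the Tgfbr2 window differed in the same way. The lowest 43.6 kb held 5 dendritic cell summits, with scores of 18 to 81, before the first 3T3 summit at 115993637. The last and highest of these 5, at 115993597, lay 40 bp from that 3T3 summit and is shared with it. The uppermost 76.7 kb, from 116103305, held 8 3T3 summits, with scores of 21 to 97, and no dendritic cell summit. The highest of these 8, at 116150867, lay 42404 bp from the nearest dendritic cell summit. Both end stretches were picked as the longest in the window without a summit of the other list, so that absence was fixed by the choice. The upper stretch is also cut by the window edge. A dendritic cell summit with a score of 20 lay 13.3 kb above that edge, and the next 100 kb held 10 dendritic cell and 14 3T3 summits. Tgfbr2 is on the minus strand in GRCm38, so its start lies at the higher-coordinate end of the gene. Where that start falls among these mm9 summits was not determined.

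Pdgfra was marked at about the average density of the genome in both lists. The 170 kb window held 5 summits of each (1.62 to 11.7), or 2.94 per 100 kb, where the whole lists averaged 3.02 in dendritic cells and 3.10 in 3T3 up to the last summit of each chromosome. A 3T3 excess of 0 or more was found in 53.8% of 170 kb tiles. From the lower to the upper edge, the 3T3 summits scored 23, 53, 26, 30 and 60, and the dendritic cell summits scored 25, 28, 43, 34 and 27. Only the second and the fifth of the 3T3 summits lay well above the 3T3 median of 33, and only 1 dendritic cell summit (43, at 75552707) exceeded the median of its list.

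These higher 3T3 summits were the positions shared with dendritic cells. The 3T3 summit at 75539208 (score 53) lay 34 bp from a dendritic cell summit with a score of 25. The 3T3 summit at 75604517 (score 60) lay 74 bp from one with a score of 34. With the median ratio of all pairs set to 1, the 3T3 score was 2.31-fold higher at the first and 1.92-fold higher at the second. The first is past 2-fold, as are 11.9% of all pairs in this direction. The remaining 3 summits of each list had no counterpart within 1000 bp.

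Summed over 500 kb, the marking on either side of Pdgfra went opposite ways. In the 500 kb below the window 59 3T3 and 21 dendritic cell summits were listed, and in the 500 kb above it 4 and 32. The 100 kb step directly above held 1 3T3 summit and 7 dendritic cell summits, whereas the step directly below held 10 of each. The 3T3 excess below lay mostly further out. From 200 to 500 kb below, the steps held 16, 8 and 11 3T3 summits against 0, 1 and 0 of dendritic cells. The next protein-coding genes in the GRCm38 table are Gsx2 and Chic2 below, and Kit and Kdr above. Kit encodes the stem cell factor receptor of blood progenitors and mast cells, and Kdr a receptor for vascular endothelial growth factor.

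**Figure D3:**
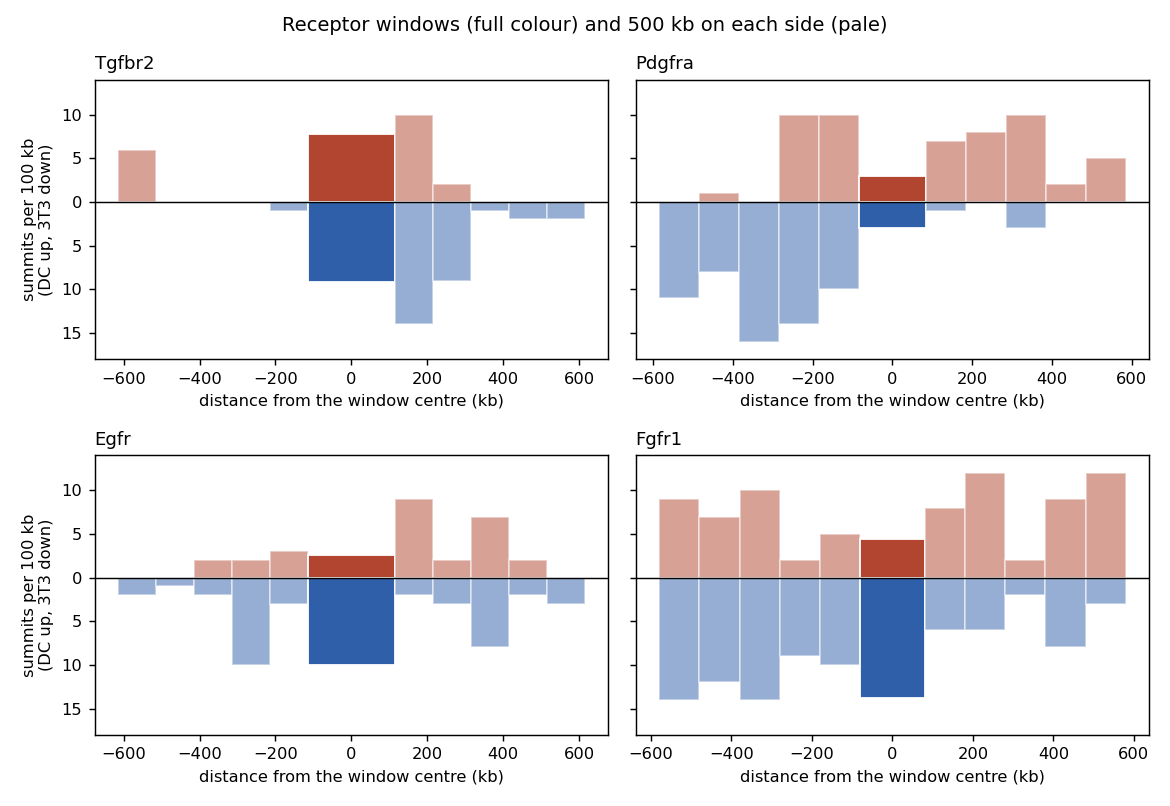
Density of summits per 100 kb (vertical axis, dendritic cells upward in red and 3T3 downward in blue) by distance from the centre of each receptor window in kb, in the window (full colour) and in 100 kb steps out to 500 kb on each side (pale). The Pdgfra panel turns from mostly 3T3 on the left (59 against 21 summits) to mostly dendritic cells on the right (4 against 32). The step directly left of the Pdgfra window holds 10 of each.

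The flanks of the other loci differed among themselves. Below Tgfbr2, 6 dendritic cell summits and 1 3T3 summit were listed within 500 kb, and above it 12 and 28. The 6 dendritic cell summits below all lay in the outermost 100 kb step. Below and above Egfr, 18 and 18 3T3 summits and 7 and 20 dendritic cell summits were listed within 500 kb. Below and above Fgfr1 the numbers were 59 and 25 in 3T3 and 33 and 43 in dendritic cells. The list with more summits changed across each of these windows, as it did at Pdgfra, though above Egfr only by 20 against 18. The Fgfr1 window edge cut close to strong signal, since a 3T3 summit with a score of 201, higher than any inside, lay at 26573595, 6.4 kb outside. At the upper Egfr edge, summits at 16849154 (3T3, score 33) and 16849225 (dendritic cells, 31) were just inside, and those at 16852284 (3T3, 38) and 16854066 (dendritic cells, 28) just outside. Just outside the lower Pdgfra edge lay a 3T3 summit at 75475724 (score 32) and a dendritic cell summit at 75475781 (25).

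The shared receptor summits were a smaller part of the 3T3 than of the dendritic cell summits, since the same sites stand against more 3T3 summits. Across the 4 loci 13 dendritic cell summits had a 3T3 summit within 1000 bp, which is 36.1% of 36 (20.8 to 53.8), where the whole list has 30.6%. The same 13 sites are 18.3% of the 71 3T3 summits (10.1 to 29.3), against 29.8% of the whole 3T3 list. When equal numbers of top-scoring summits were taken from each list, 1 site remained shared at the loci, out of 20 in dendritic cells (5%) and 38 in 3T3 (2.63%), where 22.3% of either list was shared. By locus, the shared 3T3 summits were 6 of 21 at Tgfbr2, 3 of 23 at Egfr, 2 of 22 at Fgfr1 and 2 of 5 at Pdgfra. Among 3T3 summits the shared part was lowest at Fgfr1 (1.12 to 29.2%) and Egfr (2.78 to 33.6%), whose lower parts held no dendritic cell summit. These intervals overlap those of Tgfbr2 (11.3 to 52.2%) and Pdgfra (5.27 to 85.3%). Among dendritic cell summits the order differed, with 50% shared at Egfr, 40% at Pdgfra, 33.3% at Tgfbr2 and 28.6% at Fgfr1.

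Scores at the 13 shared sites differed in both directions. The median log2 ratio of 3T3 to dendritic cells, relative to all pairs, was 0.07, with a range from -1.43 to 2.07. A difference of 2-fold or more towards 3T3 was found at 2 of the 13 pairs, 1 at Tgfbr2 and 1 at Pdgfra, and at 11.9% of all pairs. In the other direction there were also 2, both at Tgfbr2, and 11.6% of all pairs differ that way. Of these, the summit pair at 115993597 scored 81 in dendritic cells and 29 in 3T3, a 2.57-fold difference. The pair at 116069463 scored 79 and 27, a 2.69-fold difference. The largest difference was that at 116061928, with 45 in dendritic cells and 174 in 3T3, 4.21-fold higher in 3T3.

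At Egfr the 3 pairs scored 32, 23 and 31 in dendritic cells and 50, 22 and 33 in 3T3, all within 2-fold. At Fgfr1 the 2 pairs scored 26 and 30 in dendritic cells and 21 and 25 in 3T3. Their log2 ratios were -0.19 and -0.14 relative to all pairs, and -0.66 and -0.61 relative to the pairs of chromosome 8, whose median lies 0.47 above that of all pairs. These shared Fgfr1 sites scored above only 10.8% and 25.3% of the 3T3 list.

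**Figure D4:**
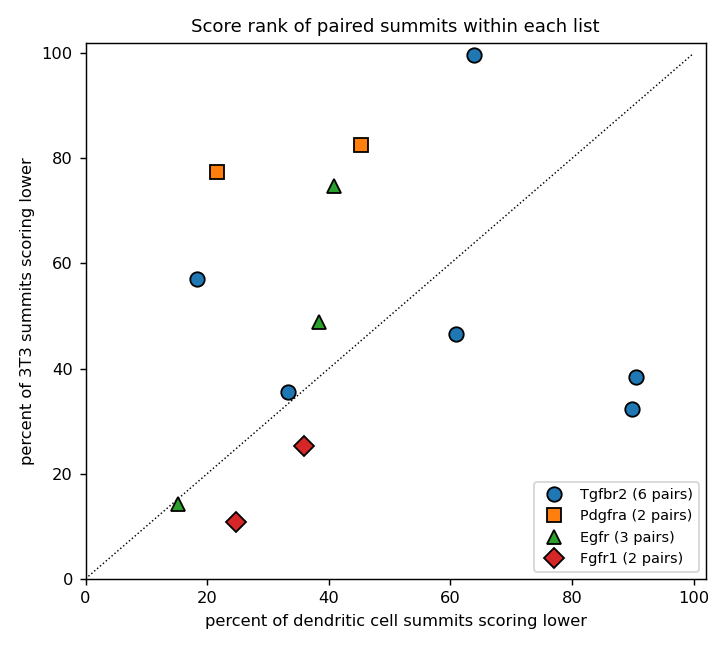
Each symbol is 1 of the 13 shared sites at the receptor loci, placed by the percent of dendritic cell summits that scored lower (horizontal axis) and the percent of 3T3 summits that scored lower (vertical axis); the dotted line marks equal rank. The Pdgfra pairs lie above the line, the Fgfr1 pairs below it, and the Tgfbr2 pairs are spread on both sides.

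The highest summits lay beside lower summits of the other cell type, or far from any. Of the 36 dendritic cell summits 5 were in the top 10% of their list, all at Tgfbr2, and 10.2% of the whole list is in that class when ties are included. Of the 71 3T3 summits 9 were, 2 at Tgfbr2, 3 at Egfr and 4 at Fgfr1, against 10.1% of the list. In the top 5% were 2 dendritic cell summits (5.56%, against 5.18% of the list) and 8 3T3 summits (11.3%, against 5.06%), a limit added after seeing the data. At none of the 14 in the top 10% was the nearest summit of the other list in its own top 10%, whereas this held genome-wide for 21.2% of such dendritic cell summits and 22.9% of such 3T3 summits. Of the 14, 3 had a counterpart within 1000 bp: 2 of the 5 in dendritic cells (36.5% genome-wide) and 1 of the 9 in 3T3 (33.7% genome-wide).

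Median score ranks put the loci in different orders in the 2 cell types. In dendritic cells the median Tgfbr2 summit scored above 62.4% of its list, followed by Fgfr1 (43.1%), Egfr (43.1%) and Pdgfra (30.7%). In 3T3 the median Egfr summit scored above 69.2%, followed by Fgfr1 (48.8%), Tgfbr2 (46.5%) and Pdgfra (41.3%). Ranked against the 3T3 summits of the same chromosome, Egfr (65.2%) was followed by Tgfbr2 (46.4%), Fgfr1 (40.9%) and Pdgfra (40%). The spread of the scores themselves within a locus was wide. At Tgfbr2 the mean score was 54.8 ± 28.8 (SD over 18 summits) in dendritic cells and 47.4 ± 34.7 (over 21) in 3T3. The order of neighbours in these rankings is therefore not resolved.

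**Figure D5:**
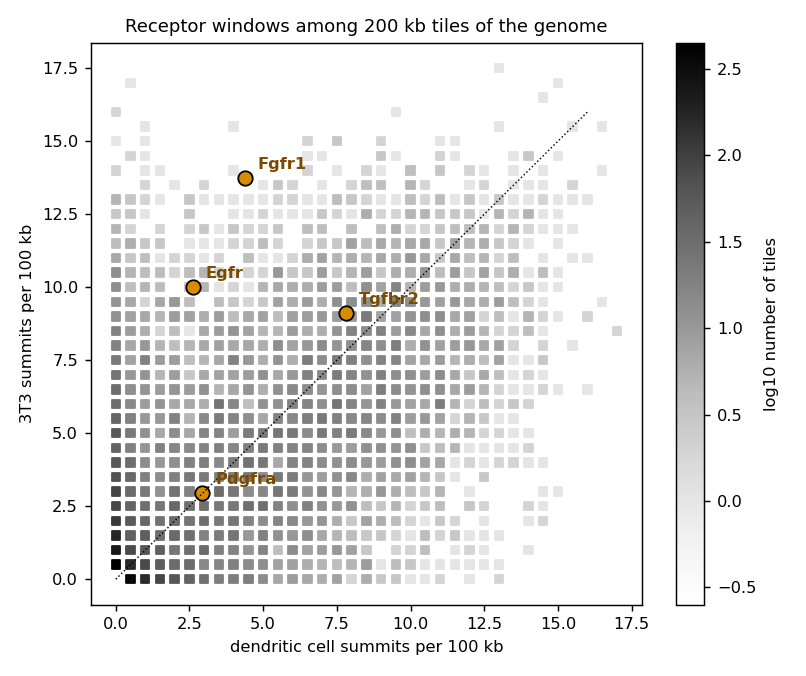
Summits per 100 kb in dendritic cells (horizontal axis) and 3T3 (vertical axis) for the 4 receptor windows (orange) and for all 200 kb tiles of the genome with any summit (grey squares, darker for more tiles on a log10 scale); the dotted line marks equal density. Egfr and Fgfr1 lie far above the line, at 10.0 and 13.7 in 3T3 against 2.61 and 4.37 in dendritic cells, and Tgfbr2 and Pdgfra lie near it.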

How the data were processed

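H3K4me1 ChIP-seq summits of unstimulated dendritic cells and unstimulated 3T3 cells were compared. Per the labels' protocols, sheared DNA of fixed nuclei (about 300 bp) went through 18 cycles of PCR and was read from one end (36 bp). The submitters' processing notes name Bowtie, MACS 1.4 and mm9. The settings per the file headers were a p threshold of 1e-04, a shift of 150, and neither a fragment model nor a local background. The sources used here do not say whether input DNA entered peak calling. The score the authors deposited for each summit, which the header does not name, was taken as a signal, the peak height. Its lowest value is 13 in each list.

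Summits were counted in the 4 windows. Counts carry exact Poisson and shares exact Clopper-Pearson 95% intervals. A summit was shared when the nearest of the other list lay within 1000 bp. Pairs are mutually nearest summits within that distance, with log2 score ratios taken relative to the median of all 24378 pairs. Non-overlapping tiles of each window's length gave the background. Counting was tested on simulated lists. The named summits are the highest of each list at each locus, the shared ones and those at window edges; others (runs, the top 10% by score) were chosen after seeing values. The windows and the comparisons were chosen with earlier results of these data known. Other receptor genes could not be counted without an mm9 annotation. Python 3.11.15, numpy 2.4.6, scipy 1.17.1 and matplotlib 3.10.9 were used.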

Additional observations from a re-analysis of the deposited data

How the results depend on the processing

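The 3T3 share of receptor summits lay 15.7 points above that of the whole lists and 12.4 to 15.7 points above it with equal numbers of top-scoring summits, merged summits, windows 20 kb longer or shorter on each side, or each chromosome's own lists. Leaving out a locus, an alternative chosen after seeing the data, gave 10.9 (without Egfr) to 22.9 (without Tgfbr2). Egfr (28.7; 22.9 to 38.9) and Fgfr1 (25.2; 15.6 against chromosome 8 to 26.9) stayed above 0 in each of these settings. With top-scoring summits Tgfbr2 (3.21) fell to -8.33 and Pdgfra (-0.64) rose to 16.7. This Pdgfra value rests on only 1 dendritic cell and 2 3T3 summits. With the window 20 kb longer on each side, Pdgfra fell to -6.89. The shared share of dendritic cell and 3T3 summits was 13.9 and 7.04% within 250 bp (17.8 and 17.3% of the whole lists), and 5 and 2.63% with top-scoring summits (1 site, against 22.3% of either list). Tiles of the same chromosome gave 50.3% for Pdgfra and 4.77% for Fgfr1. No paired analysis was possible because each cell type has 1 library. None could be left out for the same reason.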
